A study of Mus musculus with 4 samples.

Results

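A set of 10 genes of the microRNA pathway was followed in ribosome footprint and total RNA libraries of mouse embryonic stem cells depleted of eIF4A3, a helicase at the core of the exon junction complex. They are Lin28a, Trim71, Drosha, Dgcr8, Xpo5, Dicer1, Tarbp2, Ago1, Ago2 and Tnrc6a, a chosen list matched by Ensembl identifier (without its version) to symbols of GENCODE M21. All 10 members were found among the 37311 identifiers of the count files, and all 10 passed the filter on low counts. The cells were of the J1 line (mESC J1, strain 129S4/SvJae), cultured feeder-free on gelatin-coated plates with serum and LIF (leukaemia inhibitory factor). Every library came from cells infected with shRNAs against eIF4A3, for which the labels name 2 hairpins (sheIF4a3-2 and sheIF4a3-3), selected with puromycin (1 µg/mL, 3 days), harvested on day 4.5 and treated with cycloheximide (0.1 mg/mL, 1 min) before lysis. The groups were ribosome protected fragments (RPF, eIF4A3 knockdown, 2 biological replicates) and total RNA (eIF4A3 knockdown, 2 biological replicates). Unperturbed cells were not analysed here, so the values describe how footprints compare with RNA in knockdown cells and not what the knockdown changed. Which hairpin a replicate received is not given in the sources used here.

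MicroRNAs are cut from long primary transcripts in the nucleus by the Microprocessor, in which the nuclease DROSHA works with the RNA-binding protein DGCR8. Exportin 5 (Xpo5) carries the resulting hairpin to the cytoplasm, DICER1 with its partner TARBP2 cuts it again, and an Argonaute protein takes up a single strand and silences matching mRNAs together with a TNRC6 scaffold protein. LIN28A, abundant in embryonic stem cells, binds let-7 precursors and blocks their maturation, and Lin28a and Trim71 mRNAs are textbook targets of let-7 and miR-125. The miR-290 to miR-295 cluster supplies the most abundant microRNAs of mouse embryonic stem cells.

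The microRNAs that bear on these genes are shown first, 5′ to 3′, with the seed (bases 2 to 8) in capitals, because the seed is what pairs with the mRNAs described below. They were taken from RefSeq (GRCm38.p6).
mmu-let-7a-5p: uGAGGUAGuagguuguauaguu
mmu-let-7g-5p: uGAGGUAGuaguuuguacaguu
mmu-miR-125b-5p: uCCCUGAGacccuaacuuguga
mmu-miR-291a-3p: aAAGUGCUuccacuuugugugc
mmu-miR-294-3p: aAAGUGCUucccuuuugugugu
mmu-miR-295-3p: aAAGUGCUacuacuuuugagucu
mmu-miR-291b-3p: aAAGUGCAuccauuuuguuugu
mmu-miR-293-3p: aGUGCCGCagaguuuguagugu
The let-7 pair shares the seed GAGGUAG. miR-291a-3p, miR-294-3p and miR-295-3p share the seed AAGUGCU, which miR-291b-3p and miR-293-3p do not carry.

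Matches to the let-7 seed (the letters CTACCTC on the mRNA strand) were searched in the 3′ UTR of a representative GENCODE M21 transcript per gene. Of 12635 tested coding genes, 9.47% held at least 1 match, with a median 3′ UTR of 958 bases. Among the 10 members, Lin28a had 2 matches, Trim71 had 4, Ago2 had 3 and Tarbp2 had 1, and the other 6 had 0. The UTRs of Lin28a (2778 bases), Trim71 (5515 bases) and Ago2 (11067 bases) are longer than that median, whereas that of Tarbp2 is 337 bases. Each site is given as 28 bases with the match in capitals, for Lin28a and Trim71, the textbook let-7 targets among the members.
Lin28a site 1: gagtgcacagcctgttgaaCTACCTCat
Lin28a site 2: ctttgagatcgccacaaacCTACCTCac
Trim71 site 1: gtacaacattgcctaagtcCTACCTCag
Trim71 site 2: gtgaagtgataatttctatCTACCTCaa
Trim71 site 3: tttgtttagtatggattttCTACCTCaa
Trim71 site 4: aattttggcaaaaagttgtCTACCTCac
The match to the miR-125 seed (CTCAGGG on the mRNA strand) was present in 14.2% of the same 3′ UTRs. It occurred once each in Lin28a, Trim71 and Dicer1 and at 2 places in Ago2, and the sites of the first pair are shown for comparison.
Lin28a miR-125 site: tctcaggtacatgagcaatCTCAGGGat
Trim71 miR-125 site: atttcaaagaagaaatcgtCTCAGGGat
The match to the seed shared by miR-291a-3p, miR-294-3p and miR-295-3p (AGCACTT) was present in 15.5% of 3′ UTRs and, among the members, in Trim71 alone. These matches describe the sequences and were not tested as sites.

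Gene counts came to between 7615277 and 9434987 per library. The ratio below is the log2 of RPF over total RNA, given ± its standard error (SE), and levels are CPM, read counts scaled to a common library size, after TMM normalisation, a trimmed-mean correction. Over 13809 tested genes, 2835 (20.5%) passed as higher and 2930 (21.2%) as lower in RPF at an adjusted p under 0.05 (edgeR's quasi-likelihood test, Benjamini-Hochberg), so that 49.2% of calls were higher. With library size alone as the scaling the median ratio of all genes moved from -0.024 to -0.45 and 19.8% of calls were higher. Eif4a3 itself had 211.6 and 192.8 CPM in RPF and 120.1 and 100.4 CPM in total RNA, and no library without the knockdown stands beside it. Of the 28-base stretches of Eif4a3, 33.9% also match other genes on either strand, mostly Gm5580, so its counts are less certain. The 7 embryonic stem cell markers (Pou5f1, Sox2, Nanog, Esrrb, Zfp42, Utf1 and Dppa5a) had a summed level of 3511 to 3686 CPM in total RNA and 5447 to 5635 CPM in RPF. The 7 fibroblast markers summed to 5.15 to 5.57 CPM in total RNA and 11.5 to 12.9 CPM in RPF, with Dcn and Postn at 0 in both total RNA libraries. Summed levels in total RNA were 27.3 to 33.4 CPM for 5 primitive endoderm markers and 35.8 to 39.4 CPM for 5 trophectoderm markers. Of the neuroectoderm markers Pax6, Sox1, Nes and Tubb3, 3 were found, and they summed to 79.3 to 96.4 CPM. The highest of these averaged 68.9 CPM in total RNA, beside a median of 14.6 CPM. In RPF the sums were 39.4 to 51.5, 81.6 to 90.3 and 169.8 to 202.9 CPM, in the same order. In such bulk samples fewer cells expressing a gene and less RNA per cell cannot be told apart.

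Most of the pathway had fewer footprints per RNA read than the typical gene. Of the 10 members, 8 passed as lower in RPF, Xpo5 passed as higher, and Drosha did not pass. The background for these counts is 21.2% lower and 20.5% higher over all tested genes. Without total RNA replicate 1 the lower calls among the members came to 5, beside 14.4% of all genes in that fit. The median ratio of the members was -0.76, beside -0.024 for all tested genes. RPF and total RNA libraries did not overlap for any of the 10, with 8 lower and 2 higher in RPF, while 37.9% of all tested genes were separated as lower and 34.9% as higher.

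**Figure D1:**
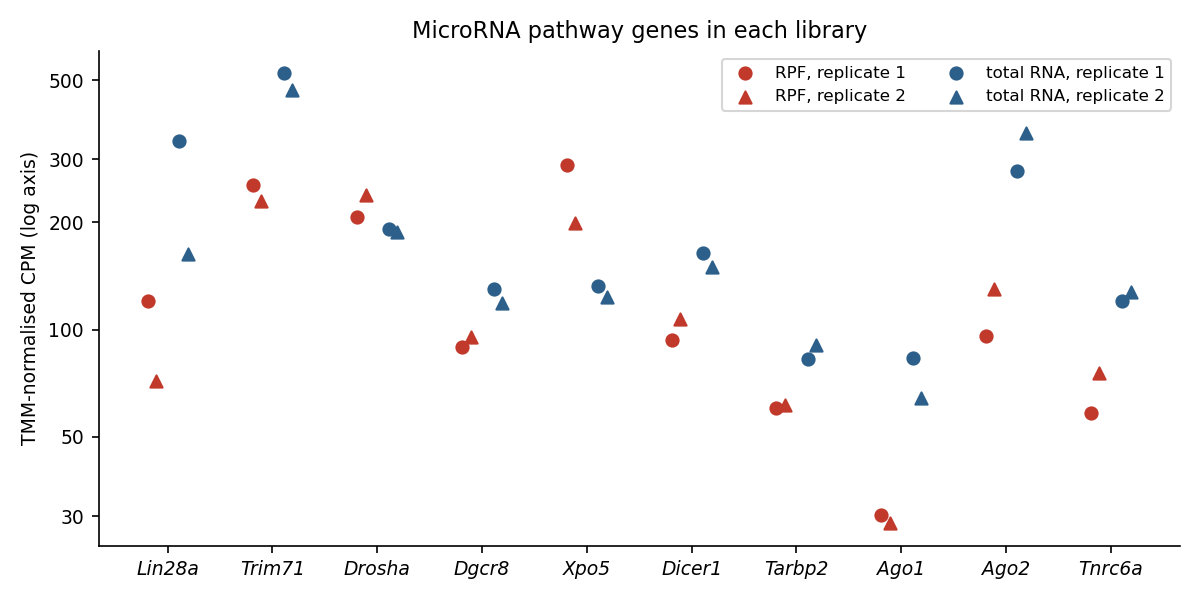
TMM-normalised CPM (log axis) of the 10 genes in each of the 4 libraries, RPF in red and total RNA in blue, circles for replicate 1 and triangles for replicate 2. In 8 genes both RPF points lie below both total RNA points, and in Drosha and Xpo5 they lie above.

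Lin28a (ENSMUSG00000050966.2, chromosome 4) encodes the RNA-binding protein that holds back let-7. Its level was 120.2 CPM in RPF replicate 1 and 71.9 CPM in RPF replicate 2, against 339 CPM in total RNA replicate 1 and 163 CPM in total RNA replicate 2. Both RPF libraries were below both total RNA libraries, and replicate 1 was above replicate 2 in each fraction, by 1.67-fold in RPF and 2.07-fold in total RNA. The ratio was -1.38 ± 0.37 (adjusted p = 0.0227), a normalised level 2.61-fold lower in RPF than in total RNA. Set side by side within replicate numbers, a comparison added after the data were seen, the ratio was -1.49 for number 1 and -1.19 for number 2. Leaving out total RNA replicate 1 brought the ratio to -0.77 (adjusted p = 0.0411, over all alternatives 2.39e-38 to 0.637).

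Trim71 (ENSMUSG00000079259.1, chromosome 9) encodes a RING-domain, RNA-binding protein of stem cells and early embryos. It had 254 and 229 CPM in RPF and 524 and 470.1 CPM in total RNA (replicates 1 and 2). Replicate 1 was above replicate 2 by 1.11-fold in each fraction, and both RPF libraries were far below both total RNA libraries. The ratio was -1.04 ± 0.16 (adjusted p = 0.00293), and it was -1.04 within either replicate number.

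Lin28a differed more between replicates than most genes. Among 9017 genes averaging 10 CPM or more, 99.5% had a smaller difference between the total RNA replicates and 94.2% between the RPF replicates. The next widest gap among members was that of Xpo5 in RPF, where 86.0% of genes had a smaller one. Ago2 went the other way, with replicate 1 at 0.740 of replicate 2 in RPF and 0.782 in total RNA. The let-7 targets Myc, Mycn, Ccnd1, Ccnd2, Igf2bp3 and Hmga1 and the helicase gene Mov10 were, like Lin28a, higher in replicate 1 in both fractions. The labels do not say whether the replicates differ in hairpin, and the part of any such difference was not tested.

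**Figure D2:**
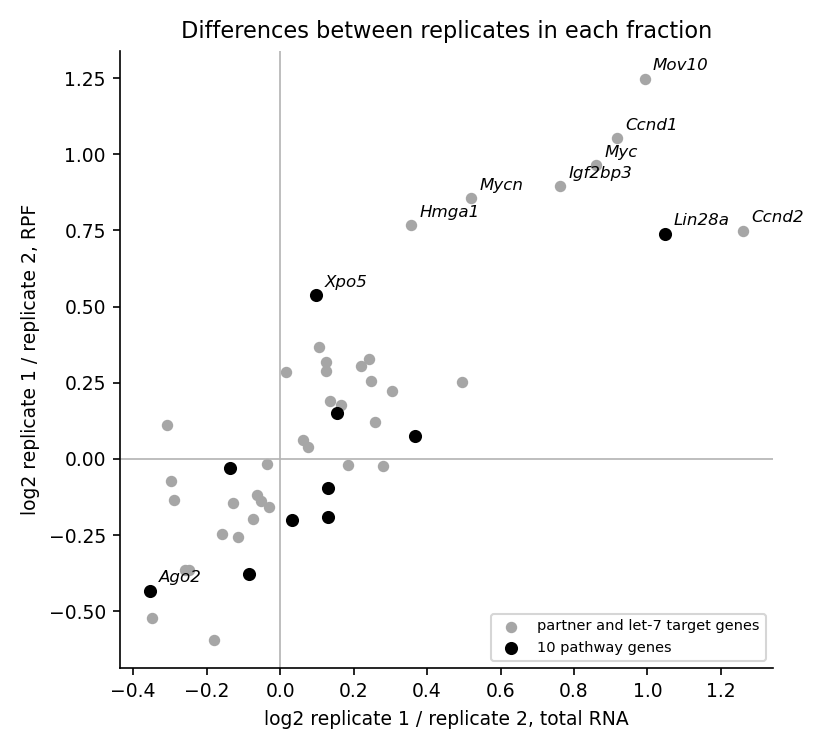
Log2 of replicate 1 over replicate 2 in total RNA (horizontal) and RPF (vertical) for the 10 pathway genes (black) and the partner and let-7 target genes averaging 10 CPM or more (grey). Lin28a lies at 1.05 and 0.74, apart from the other 9 pathway genes.

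The protein-coding genes whose 4 library values, on a log2 scale centred on their own mean, lay nearest to those of Lin28a were Ttn, Odc1, Zscan4c, Bend3 and BC067074, at Euclidean distances of 0.248, 0.297, 0.314, 0.397 and 0.397 among 8727 genes compared. Odc1, the ornithine decarboxylase of polyamine synthesis, had 409 and 249 CPM in RPF and 1117 and 699.8 CPM in total RNA. Ttn had 65.7 and 43.5 CPM in RPF and 169.98 and 101.9 CPM in total RNA. Zscan4c belongs to a family of near-identical copies, so its reads are uncertain. All 5 shared with Lin28a a higher value in replicate 1 than in replicate 2 in both fractions, which the choice by distance fixes.

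Of the nuclear Microprocessor pair, Dgcr8 passed as lower in RPF and Drosha did not pass. Drosha (ENSMUSG00000022191.8, chromosome 15) had 207 and 239 CPM in RPF and 192 and 188 CPM in total RNA. The RPF values were above the total RNA values by a small margin, and the ratio of 0.23 ± 0.15 did not pass (adjusted p = 0.238). With library size alone the ratio was -0.19, and scaled by coding share it was -0.75 (below). Its partner Dgcr8 (ENSMUSG00000022718.5, chromosome 16), which recognises the primary transcript, had 89.5 and 95.6 CPM in RPF and 130.3 and 118.9 CPM in total RNA. The fractions did not overlap, and the ratio of -0.43 ± 0.14 passed narrowly (adjusted p = 0.0403). That call was lost when any 1 of the 4 libraries was left out (adjusted p from 0.05 to 0.278), and its adjusted p over all alternatives ran from 1.94e-05 to 0.905. Of the 28-base stretches of Dgcr8, 17.2% also match other genes on either strand, mostly Trmt2a.

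Xpo5 (ENSMUSG00000067150.5, chromosome 17), the exporter of precursor hairpins, was the member with more footprints than RNA by the test. It had 289 and 199 CPM in RPF and 132.6 and 123.8 CPM in total RNA. The RPF replicates differed by 1.45-fold, yet the lower of them was above both total RNA libraries. The ratio was 0.93 ± 0.20 (adjusted p = 0.00986), a normalised level 1.91-fold higher in RPF. With library size alone it was 0.49 and did not pass (adjusted p = 0.0538, over all alternatives 8.76e-20 to 0.185).

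Both genes of the cytoplasmic cutting step were lower in RPF. Dicer1 (ENSMUSG00000041415.8, chromosome 12), the nuclease that makes the mature duplex, had 93.8 and 107 CPM in RPF and 164 and 149 CPM in total RNA. Tarbp2 (ENSMUSG00000023051.4, chromosome 15), its double-stranded RNA-binding partner, had 60.2 and 61.5 CPM in RPF and 82.5 and 90.8 CPM in total RNA. In neither gene did the fractions overlap. The ratio was -0.64 ± 0.14 for Dicer1 (adjusted p = 0.0121) and -0.51 ± 0.13 for Tarbp2 (adjusted p = 0.0208). Without total RNA replicate 1 neither passed (adjusted p = 0.0857 and 0.0732), and without total RNA replicate 2 Tarbp2 did not (adjusted p = 0.196). Over all alternatives the adjusted p ran from 1.06e-10 to 0.373 for Dicer1 and from 1.5e-06 to 0.843 for Tarbp2. Of the 28-base stretches of Tarbp2, 17.1% also match other genes on either strand, nearly all Gm18584.

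The effector genes had some of the lowest ratios of the pathway. Ago2 (ENSMUSG00000036698.8, chromosome 15), the Argonaute that can cut its target, had 96.0 and 129.8 CPM in RPF and 279 and 356 CPM in total RNA, with a ratio of -1.49 ± 0.21 (adjusted p = 0.0021). Ago1 (ENSMUSG00000041530.8, chromosome 4), a paralogue, had 30.2 and 28.7 CPM in RPF and 83.3 and 64.5 CPM in total RNA, with a ratio of -1.33 ± 0.17 (adjusted p = 0.00177). In both genes every RPF value was below every total RNA value. Tnrc6a (ENSMUSG00000052707.6, chromosome 7), the scaffold that links Argonaute to deadenylation, had 58.2 and 75.8 CPM in RPF and 120.2 and 127.4 CPM in total RNA. Its fractions did not overlap either, and the ratio was -0.89 ± 0.16 (adjusted p = 0.00586).

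Lengths were unions over all annotated transcripts of a gene. Footprints come mainly from coding sequence, whereas total RNA reads come from the whole exon length. The share of a gene's exons that is coding therefore bears on the ratio. That share was 15.7% for Lin28a and 18.4% for Ago2, the lowest of the members, and 69.4% for Drosha and 52.7% for Xpo5, the highest, beside a median of 35.8% over tested coding genes. A length-scaled ratio, added after the data were seen, set the RPF counts against the coding length and the total RNA counts against the exon length. It was centred on the median coding share of tested coding genes and fitted on coding genes only. Its values are therefore relative to the typical coding gene and are not the quotient of the levels per kb given below. On that scale Lin28a moved from -1.38 to -0.22 (adjusted p = 0.637) and from the 7.25th to the 40.9th percentile of 12655 coding genes. Ago2 moved from -1.49 to -0.56 (adjusted p = 0.0525), and Xpo5 from 0.93 to 0.35 (adjusted p = 0.185).

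Of the other members, Tnrc6a, Ago1, Trim71 and Dicer1 stayed lower on the length scale, Drosha became lower, and Tarbp2 and Dgcr8 were no longer called. Tnrc6a went from -0.89 to -1.29 (adjusted p = 0.000748), and Ago1 from -1.33 to -1.23 (adjusted p = 0.00111). Trim71 was at -0.69 (adjusted p = 0.00981) and Dicer1 at -0.60 (adjusted p = 0.0116). Drosha, whose 3′ UTR has 171 bases, turned from 0.23 to -0.75 (adjusted p = 0.00483). Tarbp2 turned from -0.51 to 0.04 (adjusted p = 0.843), and Dgcr8 was at -0.21 (adjusted p = 0.237). The exon union of Tarbp2 was 4549 bases, while its representative transcript had 1095 coding bases and UTRs of 91 and 337. For Dgcr8 the union was 7696 bases, beside 2319 coding bases and UTRs of 424 and 1577. Whether these calls are lost with the lengths of single transcripts was not tested. The members called lower were then Trim71, Drosha, Dicer1, Ago1 and Tnrc6a, 5 of 10, where 22.7% of coding genes were lower and 26.5% higher on that scale. The other correction, a smooth curve of the ratio against coding share, moved the members less: 6 were lower and 1 higher, beside 18.7% and 20.7% of coding genes. Under it Lin28a was at -1.09 (adjusted p = 0.0495), Ago2 at -1.24 (adjusted p = 0.00364) and Xpo5 at 0.75 (adjusted p = 0.0216), all still called. Tarbp2 (-0.35, adjusted p = 0.072) and Dgcr8 (-0.36, adjusted p = 0.0685) lost their calls, and Drosha was at 0.013 (adjusted p = 0.955).

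**Figure D3:**
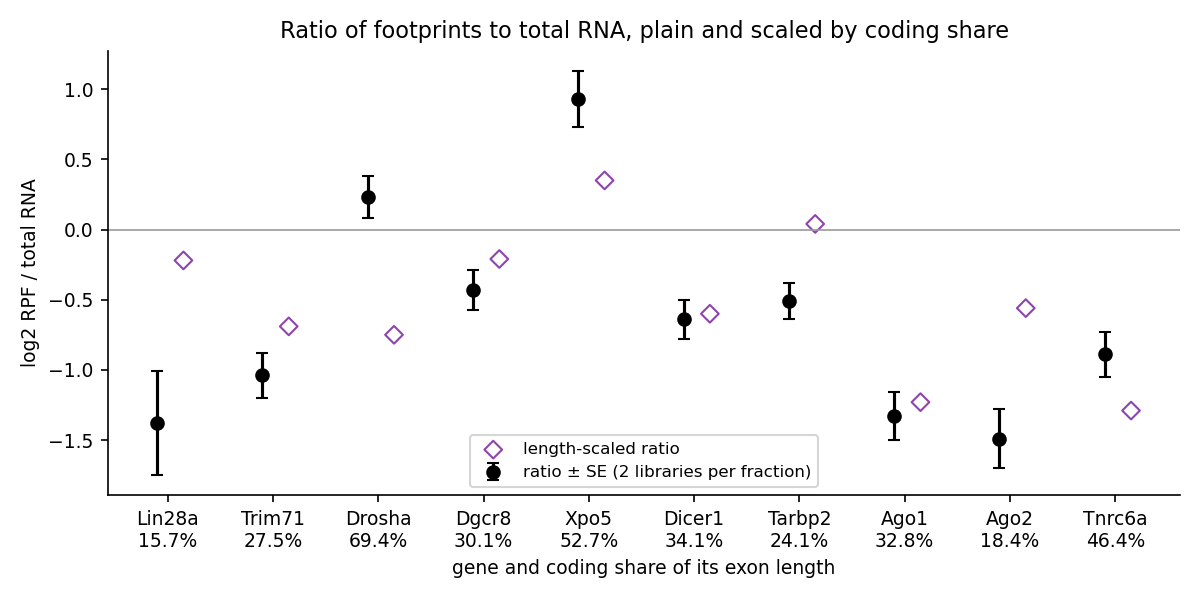
Log2 RPF over total RNA of the 10 genes with its standard error (filled circles, 2 libraries per fraction) and the length-scaled ratio (open diamonds), with the coding share of the exon length under each name. Lin28a, with a coding share of 15.7%, moves from -1.38 to -0.22, and Drosha, with 69.4%, from 0.23 to -0.75.

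Levels can be compared between genes only per length. In total RNA per kb of the exon union, Lin28a (62.8 ± 31.0 CPM per kb, SD, n = 2 libraries) and Trim71 (53.2 ± 4.05) were the most abundant members. Both lay above Drosha (32.0 ± 0.516). Lin28a and Trim71 overlapped between libraries, and neither overlapped Drosha. Ago2, Tarbp2 and Xpo5 followed at 22.6, 19.1 and 18.7 CPM per kb, neighbours whose libraries overlapped, then Dgcr8 at 16.2. Tnrc6a, Dicer1 and Ago1 were the lowest at 9.74, 9.34 and 9.10 CPM per kb and overlapped each other. Among tested coding genes Lin28a stood at the 96.1th and Ago1 at the 63.7th percentile of the total RNA level per kb. This order holds for union lengths only. For Tarbp2 the union was 4549 bases, against 1095 coding bases and UTRs of 91 and 337 in its representative transcript. For Trim71 it was 9332 bases, against 2565 coding bases and UTRs of 1252 and 5515. On single transcript lengths, which were not used, Tarbp2 would stand higher.

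In RPF per kb of coding sequence Lin28a was again first, at 192 and 115 CPM per kb in replicates 1 and 2. Trim71 followed at 99.1 and 89.3 CPM per kb, without overlap with Lin28a or with Xpo5 at 80.1 and 55.1. Tarbp2 (55.6), Drosha (54.1), Ago2 (43.7) and Dgcr8 (39.9) formed the middle as means in CPM per kb. Xpo5, Tarbp2 and Drosha overlapped as neighbours, as did Ago2 and Dgcr8. Dicer1 (17.6), Tnrc6a (11.4) and Ago1 (11.1) were last, and the last pair overlapped. Lin28a was the leading member by RPF level per coding length while having the second lowest plain ratio. Per kb of exon in RPF, Drosha (37.6 CPM per kb), Xpo5 (35.6) and Trim71 (25.9) lay above Lin28a (24.04).

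Partner genes of the pathway (23 genes: Microprocessor helpers, paralogues, chaperones of Argonaute loading, decay and tailing enzymes) were all tested. In RPF 7 passed as higher and 6 as lower, against the same backgrounds of 20.5% and 21.2%, with a median ratio of -0.05. The highest ratios were those of Hsp90ab1 (1.59 ± 0.29, adjusted p = 0.00537) and Hsp90aa1 (1.56 ± 0.26, adjusted p = 0.00415), the HSP90 chaperones that help load Argonaute. On the length scale Hsp90ab1 was at 0.54 (adjusted p = 0.134) and lost its call, while Hsp90aa1 was at 0.89 (adjusted p = 0.0205). Mov10, an RNA helicase found with Argonaute, had 122.7 and 51.4 CPM in RPF and 50.9 and 25.3 CPM in total RNA, and its ratio of 1.19 ± 0.45 did not pass (adjusted p = 0.0681). It passed without RPF replicate 2 (1.70) and without total RNA replicate 1 (1.78), and was at 0.44 and 0.77 without RPF replicate 1 and total RNA replicate 2, where it did not pass. Among partners averaging 10 CPM or more the lowest were Ago3 (-1.90 ± 0.18, adjusted p = 0.000776), Lin28b (-1.77 ± 0.19, adjusted p = 0.00101) and Limd1 (-0.92 ± 0.21, adjusted p = 0.0126), a LIM protein that binds Argonaute. Leaving out total RNA replicate 2 brought the partner counts to 4 higher and 3 lower, beside 1721 and 1857 of all 14375 genes in that fit, and both Hsp90ab1 and Limd1 then missed the threshold.

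Of the paralogues, Lin28b, Ago3, Tnrc6b and Tnrc6c passed as lower in RPF, and Ago4 and Prkra did not pass. Lin28b, the paralogue of Lin28a, had 10.2 and 9.75 CPM in RPF and 34.9 and 33.4 CPM in total RNA. Its replicates were close, unlike those of Lin28a, and on the length scale its ratio turned to 0.19 (adjusted p = 0.42). Ago3 had 15.9 and 17.5 CPM in RPF and 56.1 and 68.7 CPM in total RNA, and Ago4 had at most 2.47 CPM in any library with a ratio of -1.63 ± 0.58 (adjusted p = 0.0582) that passed at -2.42 without RPF replicate 2. Tnrc6b (-0.87 ± 0.14, adjusted p = 0.00351) and Tnrc6c (-0.48 ± 0.13, adjusted p = 0.0263) both passed as lower, as Tnrc6a did, although Tnrc6c did not pass with any of total RNA replicate 1, total RNA replicate 2 or RPF replicate 1 left out (adjusted p from 0.11 to 0.167). On the length scale Tnrc6b was at -0.30 (adjusted p = 0.113) and lost its call, while Tnrc6c was at -0.82 (adjusted p = 0.0022). Prkra, the paralogue of Tarbp2, had a ratio of -0.35 ± 0.27 (adjusted p = 0.329).

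Of 18 textbook let-7 target genes, all tested, 2 passed as higher and 5 as lower in RPF, beside 20.5% and 21.2% over all genes, with a median ratio of -0.29. Myc, the transcription factor, had 88.8 and 45.2 CPM in RPF and 24.9 and 13.5 CPM in total RNA (ratio 1.80 ± 0.38, adjusted p = 0.00953). Mycn, at 0.86 ± 0.30, did not pass (adjusted p = 0.054), but did with DESeq2 (0.89, adjusted p = 0.00854), without RPF replicate 2 (1.24) or without total RNA replicate 1 (1.14). Over all its alternatives the adjusted p ran from 9.01e-17 to 0.237. Among the lowest were Nras, a GTPase gene (-1.26 ± 0.17, adjusted p = 0.00185), and E2f6, a repressor gene (-1.13 ± 0.20, adjusted p = 0.00529).

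The median coding share of this list was 20.3%, and the corrections for it gave different counts. The smooth curve of coding share gave 2 higher and 4 lower, close to the uncorrected counts. On the length scale, added after the data were seen, 9 of the 18 passed as higher and 1 as lower, beside 26.5% and 22.7% of coding genes, and Nras turned to 0.39 without passing. Without RPF replicate 2, 5 passed as higher (22.9% of all genes in that fit), and without total RNA replicate 1 there were 4 (14.1%), with 3 lower (14.4%). Without total RNA replicate 2 there were also 3 lower (12.9% of all genes).

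**Figure D4:**
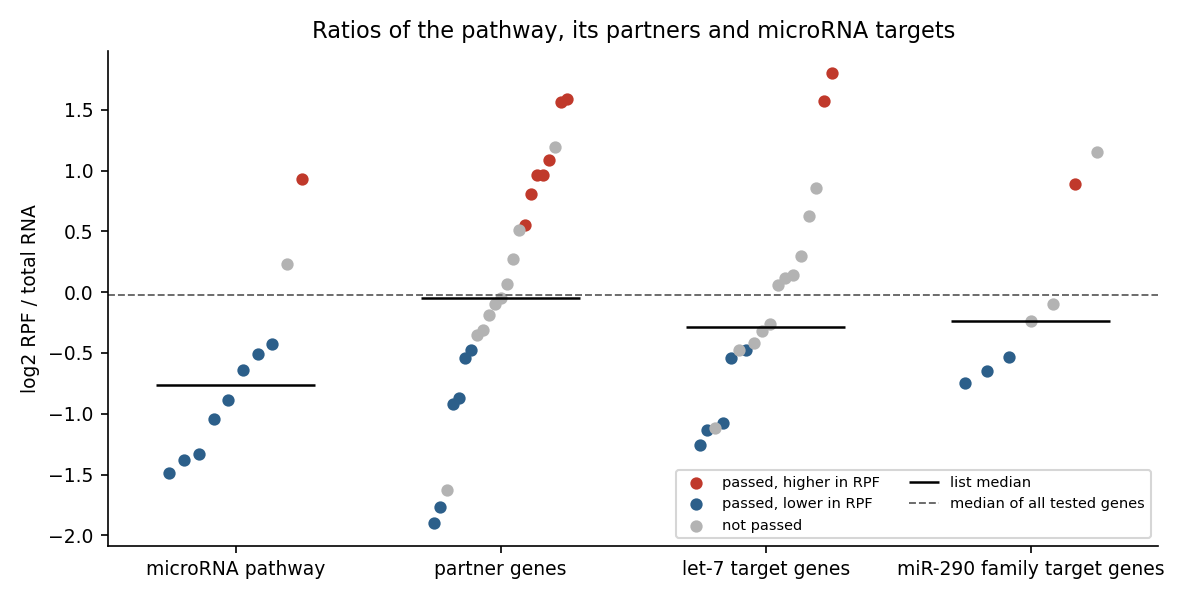
Log2 RPF over total RNA of each tested gene in 4 lists, red where it passed as higher, blue as lower and grey where it did not pass, with the median of the list (black bar) and of all tested genes (dashed). The medians are -0.76 for the 10 microRNA pathway genes, -0.05 for 23 partners, -0.29 for 18 let-7 targets and -0.24 for 7 miR-290 family targets.

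The 7 textbook targets of the miR-290 family gave 1 higher and 3 lower calls (background 20.5% and 21.2%), with a median ratio of -0.24. Cdkn1a, the cell cycle inhibitor p21, was higher (0.89 ± 0.18, adjusted p = 0.00812), with 72.4 and 85.8 CPM in RPF and 36.8 and 48.6 CPM in total RNA. With library size alone it was at 0.46 and did not pass (adjusted p = 0.117, over all alternatives 5.63e-16 to 0.117). Lats2 (-0.75 ± 0.25, adjusted p = 0.0498), a kinase of the Hippo pathway, Rbl2 (-0.65 ± 0.22, adjusted p = 0.0474), a pocket protein, and Casp2 (-0.53 ± 0.15, adjusted p = 0.0292) were lower. Each of these 3 calls was lost when RPF replicate 1 or total RNA replicate 2 was left out, and those of Lats2 and Casp2 also without total RNA replicate 1. Casp2 turned to 0.28 on the length scale. Dkk1 (1.15 ± 0.51, adjusted p = 0.112), Mbd2 (-0.24 ± 0.25, adjusted p = 0.475) and Tgfbr2 (-0.096 ± 0.41, adjusted p = 0.867) did not pass.

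The count files also list 1081 genes of the microRNA hairpin class, the products on which these proteins act. Neither fraction is a small RNA library, so these counts do not measure mature microRNA. Hairpin genes held 0.127% and 0.446% of gene counts in RPF replicates 1 and 2 and 0.0194% and 0.0234% in total RNA. Counts were present in 346 of them, and 29 were tested, of which 17 passed as higher and 4 as lower (background 20.5% and 21.2%). The filter admits a gene on the counts of either fraction alone, as with Gm23935, which had none in total RNA. The tested hairpin genes are thus a selected group, for which that background is not a like comparison. The 9 let-7 hairpin genes had 9 and 21 counts in all in RPF and 17 and 10 in total RNA, and none reached the filter. For let-7 a difference was therefore not detectable at this depth.

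The 3 hairpin genes with the largest counts were Mir2137, Mir291a and Gm23935. Mir2137 had 8287 and 25552 counts in RPF and 12 and 29 in total RNA, and by itself held most of the hairpin counts of the RPF libraries (ratio 10.17 ± 0.84, adjusted p = 0.000559). Its ratio was 9.03 without RPF replicate 2 and 10.82 without RPF replicate 1, and 9.63 and 10.98 without total RNA replicates 1 and 2. Gm23935 had 574 and 2686 counts in RPF and 0 in both total RNA libraries. Set against 3 counts per total RNA library, its level was at least 246-fold higher in RPF replicate 1, the lower of the RPF libraries. Its 28-base stretches all match other genes as well, on either strand. Replicate 2 was the higher RPF library for both.

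The 7 genes of the miR-290 to miR-295 cluster, on chromosome 7, did not move together. Mir291a had 1210 and 2424 counts in RPF and 127 and 119 in total RNA (ratio 4.36 ± 0.40, adjusted p = 0.000742), and the ratio was 3.68 without RPF replicate 2. Mir294 had 554 and 510 counts in RPF and 59 and 53 in total RNA (3.69 ± 0.17, adjusted p = 0.000116). Mir295 (1.91 ± 0.28, adjusted p = 0.00261) was higher as well. So was Mir292 (3.14 ± 0.79, adjusted p = 0.0179), with 230 and 1422 counts in RPF and 126 and 141 in total RNA, and its ratio was 1.27 for number 1 and 3.83 for number 2. Mir291b ran opposite, with 40 and 37 counts in RPF and 267 and 296 in total RNA (-2.42 ± 0.23, adjusted p = 0.000776), as did Mir293 with 37 and 57 against 153 and 174 (-1.34 ± 0.32, adjusted p = 0.0147). Mir290a overlapped between the fractions, with 36 and 85 counts in RPF and 73 and 64 in total RNA (adjusted p = 0.624).

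The hairpins of a gene that was higher and of a gene that was lower are shown with their mature arms in capitals (RefSeq, GRCm38.p6, plus strand).
Mir294 (chr7:3220641-3220724): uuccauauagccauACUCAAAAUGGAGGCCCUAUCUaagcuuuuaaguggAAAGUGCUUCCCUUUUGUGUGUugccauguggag
Mir291b (chr7:3219482-3219560): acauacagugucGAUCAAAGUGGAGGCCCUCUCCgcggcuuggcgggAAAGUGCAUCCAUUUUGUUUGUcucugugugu
They were chosen after their values were seen. Every 28-base stretch of 6 of the 7 hairpins (Mir290a excepted, at 55.4%) also matches other transcripts of GENCODE M21, chiefly annotated transcripts of Nlrp12. Matches on either strand were counted. The split of reads between such features therefore depends on the counting annotation and on whether strand was used. That annotation is not given in the sources used here, nor whether counting used strand.

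**Figure D5:**
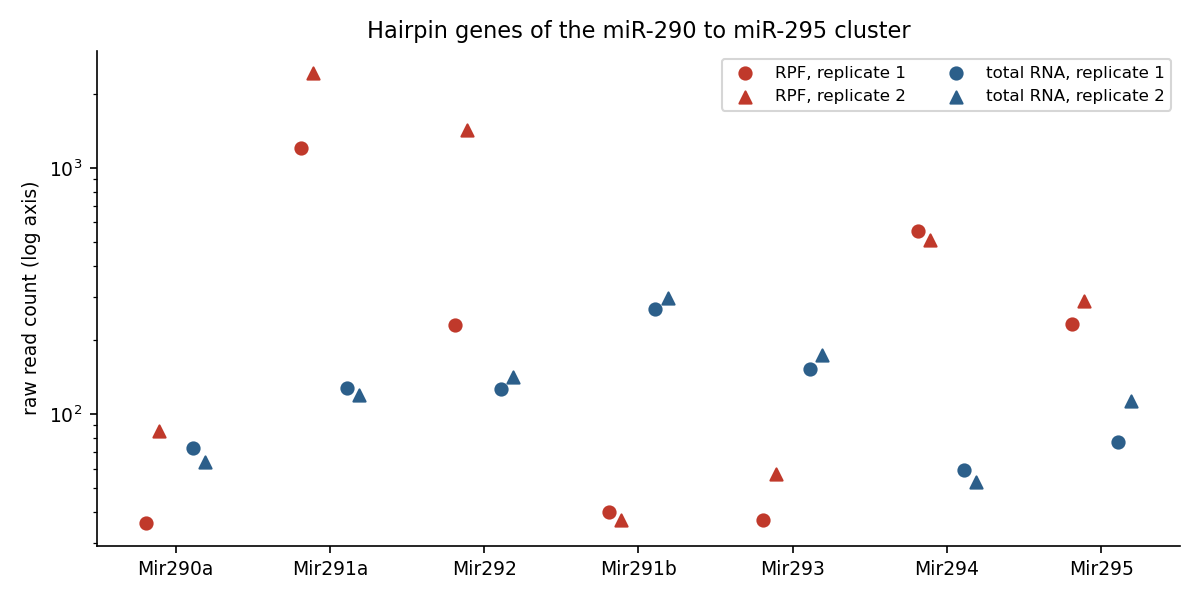
Raw read counts (log axis) of the 7 hairpin genes of the miR-290 to miR-295 cluster in each library, RPF in red and total RNA in blue. RPF points lie above total RNA points for Mir291a, Mir292, Mir294 and Mir295 and below them for Mir291b and Mir293.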

How the data were processed

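The values the authors deposited are raw, unnormalised read counts for each gene, followed by tallies of unassigned reads. Per the submitters' processing notes the build was mm9 and the tools were edgeR 3.26.8, HTSeq 0.11.2, TopHat2 2.1.1 and Bowtie 1.2.3. Per the labels' protocols, libraries were made with a ribosome profiling kit after ribosomal RNA removal and read as single-end 50 bp, with 4 runs for each RPF library. How runs were joined is not given in the sources used here, and neither is strandedness. The tallies stayed out of library sizes: reads on no feature were 5.95% and 6.66% of the total in RPF and 23.4% and 26.2% in total RNA, ambiguous reads 4.96% and 8.58% against 0.755% and 0.719%, and multiply aligned reads 16.5% to 21.0%.

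From the counts, RPF was compared with total RNA in edgeR 4.0.16 (R 4.3.3, limma 3.58.1): TMM factors, filterByExpr (minimum count 10, minimum total 15), a quasi-likelihood fit of fraction, two-sided tests and Benjamini-Hochberg adjustment over all 13809 tested genes, with a threshold of 0.05. SE is the ratio's size over the square root of F. The method was tested on simulated counts with known folds and the same spread for every gene. The simulation held no replicate differences or coding-length effects, so it does not bear on those. With 2 libraries per fraction, the spread behind the p-values was estimated partly across all genes. Very small values, such as those with the replicate block, therefore do not rest on a gene's own replicates alone. GENCODE M21 (GRCm38) named 87.4% of identifiers and gave lengths, and sequences came from it and from RefSeq. Exon and coding lengths were unions over all annotated transcripts of a gene. No gene coordinates are given for the counts, since their build differs. Limits from a count of 0 (3 counts) cover counting error only.

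Members and lists were chosen with earlier results of these data known. Named genes were the members, Eif4a3, 6 paralogues or partners, the 3 highest and 3 lowest partner and let-7 target ratios at a mean of at least 10 CPM, every tested miR-290 family target, the 3 hairpin genes with the largest counts and the 5 genes nearest to Lin28a. Some genes that this rule names are not reported here. Other hairpin genes of the miR-290 cluster were named after their values were seen. The let-7 targets Ccnd1, Ccnd2, Igf2bp3 and Hmga1 were also named outside this rule, where replicate differences are described. Alternatives were DESeq2 1.42.0 and its size factors, library size only, no count filter, a filter at 10 CPM on average, limma-voom, glmTreat against a fold of 1.5, a replicate block, a loess correction (span 0.5) for coding share, protein-coding genes only, leaving out each library and, added after seeing the data, the length-scaled ratio and the ratio within replicate numbers.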

Additional observations from a re-analysis of the deposited data

How the results depend on the processing

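Over 37 named genes, 462 of the alternative values kept their direction and their side of the threshold, 57 lost the call, 12 gained it and 11 changed sign. Limma-voom, the filter at a mean of 10 CPM and protein-coding genes only left all 10 members with the same call. The count of members called higher (1) became 0 with library size only, with glmTreat and on the length scale, and the count called lower (8) became 3 with glmTreat and 5 on the length scale. With library size only, 10 partners and 8 let-7 targets were lower, and over all genes 1226 were higher and 4957 lower. With glmTreat, 2 partners and 3 let-7 targets were lower, and over all genes 1155 were higher and 1549 lower. On the length scale 9 let-7 targets were higher and 1 lower, beside 3357 higher and 2876 lower of 12655 coding genes. Drosha changed sign with library size only (-0.19) and on the length scale (-0.75), where Tarbp2 (0.036), Lin28b (0.19), Nras (0.39), Casp2 (0.28) and Tgfbr2 (0.60) did too; Tgfbr2 was also at 0.10 after correction for coding share. The RPF level of Lin28a per kb was 24.04 ± 8.56 CPM with exon length for both fractions, against 153 ± 54.6 CPM with coding length, and Drosha, Xpo5 and Trim71 then lay above it.

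Leaving out single libraries gave 5 to 7 members lower and 1 higher, 4 to 9 partners higher and 3 to 7 lower, 2 to 5 let-7 targets higher and 3 to 6 lower, and 1721 to 3341 genes higher and 1857 to 3440 lower over all. The lowest counts over all genes came without total RNA replicate 2. Tgfbr2 ranged from -0.53 without RPF replicate 1 to 0.25 without RPF replicate 2, and was at 0.035 without total RNA replicate 1. In these fits the lone library of a fraction is assumed to vary like the other fraction.

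The labels do not say that a replicate number joins an RPF and a total RNA library. The log2 differences between numbers 1 and 2 correlated between the fractions (r = 0.619 over 9017 genes, which are not independent replicates), but with 2 pairs this is a hint only. With the replicate block, 2 members were called higher (Xpo5 and Drosha, at 0.23, adjusted p = 0.0258) and 8 lower, 10 partners were higher and 8 lower, 5 let-7 targets were higher and 8 lower, and over all genes 4257 were higher and 4365 lower. Mov10 (1.16, adjusted p = 7.68e-25), Mycn (0.83, adjusted p = 9.01e-17) and Ago4 (-1.65, adjusted p = 0.0184) gained a call with the block as well.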
